A study of Mus musculus with 7 samples.

Results

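Fos peaks were examined around 8 genes for protein kinases, grouped as inducible by neuronal activity, namely Sik1, Sik2, Sik3, Plk2, Plk3, Sgk1, Pim1 and Pim3. The files measure binding of Fos and not expression, so the induction of these genes itself was not measured. They were chosen by name out of 21883 protein-coding genes, and a peak was counted where it lay within 50 kb of the span of a gene in GRCm38. The libraries came from a chromatin immunoprecipitation with an antibody against Fos in hippocampus of wild-type C57BL/6J mice aged 2 months. One group of 3 libraries came from mice given phosphate-buffered saline. The other group of 3 libraries came from mice given kainic acid, a glutamate receptor agonist that provokes seizures, as 2 intraperitoneal injections of 10 mg/kg that were 30 min apart. These mice had seizures of level 4 and were killed 1 hour after the first injection, and no time point is given for the saline mice. The number of animals behind each library is not given, so p-values measure only the spread between these libraries, which may be technical. The tissue was whole hippocampus, so Fos bound in fewer cells and less Fos per cell cannot be told apart.

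The 8 genes belong to families with different roles. The salt-inducible kinases, encoded by Sik1, Sik2 and Sik3, phosphorylate the CRTC coactivators of CREB and the histone deacetylases Hdac4 and Hdac5, which keeps these proteins out of the nucleus. Plk2 and Plk3 are polo-like kinases, and Plk2 is known for weakening synapses after prolonged activity through the spine protein encoded by Sipa1l1. Sgk1 is a kinase induced by serum and glucocorticoids that acts on the ubiquitin ligase Nedd4l and so on ion channels, and Pim1 and Pim3 are kinases that are active once made, so that their amount is set largely by transcription and turnover. Fos pairs with Jun proteins to form AP-1, which binds the motif TGANTCA, while CREB binds the related CRE motif TGACGTCA.

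Promoter sequence could be read for 7 of the 8 genes from RefSeq (GRCm38.p6), as the 250 bases before each annotated start. Of the windows below, those of Plk2, Sik3 and Plk3 are shown for their CRE motifs and the main one of Pim1 for a saline peak that reaches into it, with the CRE motif TGACGTCA and its shorter core TGACG, searched on both strands, in capitals. The window of Plk2 is chr13:110394794-110395043 on the plus strand, that of Sik3 is chr9:46012570-46012819 on the plus strand, the main one of Pim1 is chr17:29490535-29490784 on the plus strand and that of Plk3 is chr4:117133964-117134213 on the minus strand.
Plk2: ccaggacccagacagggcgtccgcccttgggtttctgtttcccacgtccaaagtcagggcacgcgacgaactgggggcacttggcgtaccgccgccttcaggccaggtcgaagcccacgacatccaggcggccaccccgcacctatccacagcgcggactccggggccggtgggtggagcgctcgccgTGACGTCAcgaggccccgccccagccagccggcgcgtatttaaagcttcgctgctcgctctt
Sik3: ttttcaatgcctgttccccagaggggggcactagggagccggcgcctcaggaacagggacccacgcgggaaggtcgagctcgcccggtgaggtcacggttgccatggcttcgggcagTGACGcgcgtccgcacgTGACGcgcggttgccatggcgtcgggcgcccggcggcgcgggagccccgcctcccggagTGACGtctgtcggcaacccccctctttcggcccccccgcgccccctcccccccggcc
Pim1: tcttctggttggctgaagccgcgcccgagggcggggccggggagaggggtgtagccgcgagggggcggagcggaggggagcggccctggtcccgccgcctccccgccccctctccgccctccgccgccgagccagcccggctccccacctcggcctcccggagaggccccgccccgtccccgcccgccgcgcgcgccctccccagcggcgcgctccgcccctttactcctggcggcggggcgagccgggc
Plk3: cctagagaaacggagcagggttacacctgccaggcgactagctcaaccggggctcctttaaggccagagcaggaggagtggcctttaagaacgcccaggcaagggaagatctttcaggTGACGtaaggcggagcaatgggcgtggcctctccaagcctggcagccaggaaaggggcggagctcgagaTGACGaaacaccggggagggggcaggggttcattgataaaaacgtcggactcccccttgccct

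The AP-1 motif TGANTCA was in none of the 13 RefSeq windows of these 7 genes, and in 6.75% of the 32851 windows of that length in the table. Plk2 held the full CRE, found in 1.55% of all windows, and the 2 matches to TGACG in that window lie within it. Sik3 held TGACG at 3 places, Plk3 at 2 and 1 of the 6 Sgk1 windows at 1, where 17.8% of all windows hold at least 1. Pim1 held none of these letters in this window. In 1 library alone, kainic acid replicate 2, a peak reached 14 bases into the Plk2 window and 47 bases into that of Sik3. Peaks of the same library covered 93 bases of the Sik2 window, 44 bases of 1 of the 6 Sgk1 windows and 222 bases of a second Pim1 window, chr17:29492835-29493084. In the main Pim1 window, printed above, the only peaks were from saline replicate 2. The peak chr17:29490703-29490916 covered 82 bases, and chr17:29490011-29490546 reached into the upstream edge of the window. No list had a peak in the window of Plk3. The distal regions described below are given by position only.

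Kainic acid lists held many Fos peaks near these genes and saline lists few. Within 50 kb of the 8 genes, kainic acid replicates 1, 2 and 3 had 29, 122 and 55 peaks. Saline replicates 1, 2 and 3 had 0, 7 and 0 peaks. All kainic acid libraries lay above all saline libraries, with means of 68.7 ± 48.0 and 2.33 ± 4.04 (SD, n = 3 each). The difference of 66.3 peaks gave p = 0.1 in a two-sided exact permutation test over 20 assignments, the smallest value that 3 libraries against 3 allow.

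These numbers followed the length of the lists, which held 15009, 63197 and 29650 peaks with kainic acid and 7, 3277 and 2 with saline. The windows of the 8 genes took 0.193%, 0.193% and 0.185% of the peaks of kainic acid replicates 1, 2 and 3. They took 0.214% of the peaks of saline replicate 2, with a 95% Clopper-Pearson interval of 0.0859 to 0.440%. This interval covers counting error only and holds all 3 kainic acid shares, so a difference in share was not detectable at this depth. No read totals come with the lists. The number of reads stacked over a summit, solved from the deposited fold and −log10 p, ran from 16 to 51, 11 to 94 and 15 to 76 near these genes in kainic acid replicates 1, 2 and 3, and from 16 to 23 in saline replicate 2.

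**Figure D1:**
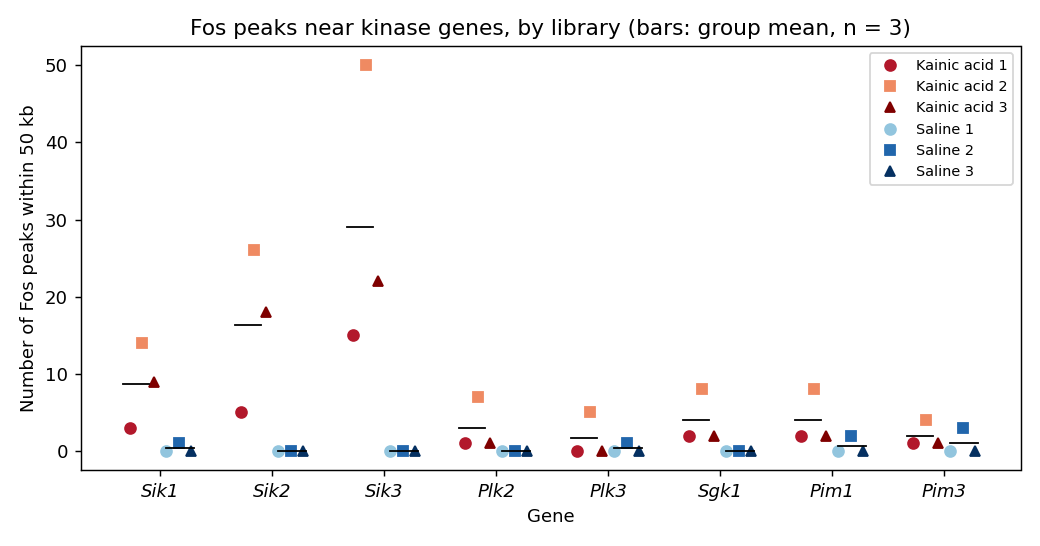
Number of Fos peaks within 50 kb of each kinase gene (y axis) in the 3 kainic acid libraries (red) and 3 saline libraries (blue), with short bars at the group means. The Sik genes have the most peaks, up to 50 at Sik3 in kainic acid replicate 2, and that replicate is the highest at every gene.

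Gene by gene, 5 of the 8 had more peaks in every kainic acid list than in every saline list. This was the case for 33.5% of all protein-coding genes. Sik3 had 15, 50 and 22 peaks in kainic acid replicates 1, 2 and 3, and Sik2 had 5, 26 and 18, with no saline peak at either gene. Sik1 had 3, 14 and 9 peaks with kainic acid and 1 in saline replicate 2. Sgk1 had 2, 8 and 2, and Plk2 had 1, 7 and 1, again with none in saline. The groups met at the other 3 genes. Pim1 had 2, 8 and 2 peaks with kainic acid and 2 in saline replicate 2. Pim3 had 1, 4 and 1 with kainic acid and 3 in saline replicate 2, and Plk3 had 0, 5 and 0 with kainic acid and 1 in saline replicate 2. Saline replicates 1 and 3 had no peak near any of the 8 genes, and near 0.032% of all protein-coding genes.

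Peaks of all 6 lists that overlapped by at least 1 bp were merged into regions, and a region was called a kainic acid region where at least 2 of the 3 kainic acid lists had a peak in it. Of 126 regions with any kainic acid peak near the 8 genes, 25 were in all 3 lists, 25 in exactly 2 and 76 in 1, and 69 of these 76 rested on kainic acid replicate 2. The 50 kainic acid regions were 39.7% of those with a peak, against 40.3% over the whole genome. They were 21 of 53 at Sik3, 14 of 27 at Sik2 and 7 of 15 at Sik1. At the other 5 genes together they were 8 of 31, or 25.8%. At least 1 kainic acid region lay near 7 of the 8 genes, against 62.7% of all protein-coding genes. Regions in all 3 lists lay near 6 of the 8, against 42.5%, and regions in any kainic acid list near 8 of the 8, against 78%. With the reach cut to 10 kb, 6 of the 8 genes had a kainic acid region, against 40%. These background shares are over genes of all lengths, and the 8 genes were chosen with earlier results of these data known. Plk3 had no kainic acid region, and Plk2 had none in all 3 lists.

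The 3 Sik genes held 42 of the 50 regions, or 84.0%. Sik3 had 21, Sik2 had 14 and Sik1 had 7, while Sgk1 had 3, Plk2 and Pim1 had 2 each and Pim3 had 1. Sik3 and Sik2 are long genes with spans of 211 and 119 kb, so the number was also set against the length searched. Sik3 had 6.74 regions per 100 kb, Sik2 had 6.38 and Sik1, whose span is 11.6 kb, had 6.27. Over all protein-coding genes the median was 0.871 per 100 kb, and 1.08%, 1.44% and 1.51% of genes had a higher density than Sik3, Sik2 and Sik1. Pim1 had 1.90 regions per 100 kb, Plk2 1.89, Sgk1 1.38 and Pim3 0.966, all above that median, and Plk3 had 0. For Pim1, Plk2, Sgk1, Pim3 and Plk3, 26.1%, 26.4%, 36.8%, 42.9% and 62.7% of genes had a higher density. The span of Sgk1, 118 kb, is close to that of Sik2.

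The count at Sik2 was 14, but it fell to 4 when kainic acid replicate 2 was left out and to 5 when replicate 3 was. In the same 2 settings Sik3 went from 21 regions to 13 and 14, and Sik1 from 7 to 3 and 3. With peaks limited to −log10 q of at least 10, Sik3 had 10 regions, Sik1 had 4, Sik2 had 3, Pim1 had 2 and Pim3 had 1, and the other genes had none. Counting only regions in all 3 lists, the density was 4.17 per 100 kb at Sik3, 2.69 at Sik1, 2.28 at Sik2 and 1.90 at Pim1, and 0.548%, 3.16%, 4.80% and 7.49% of protein-coding genes had more.

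**Figure D2:**
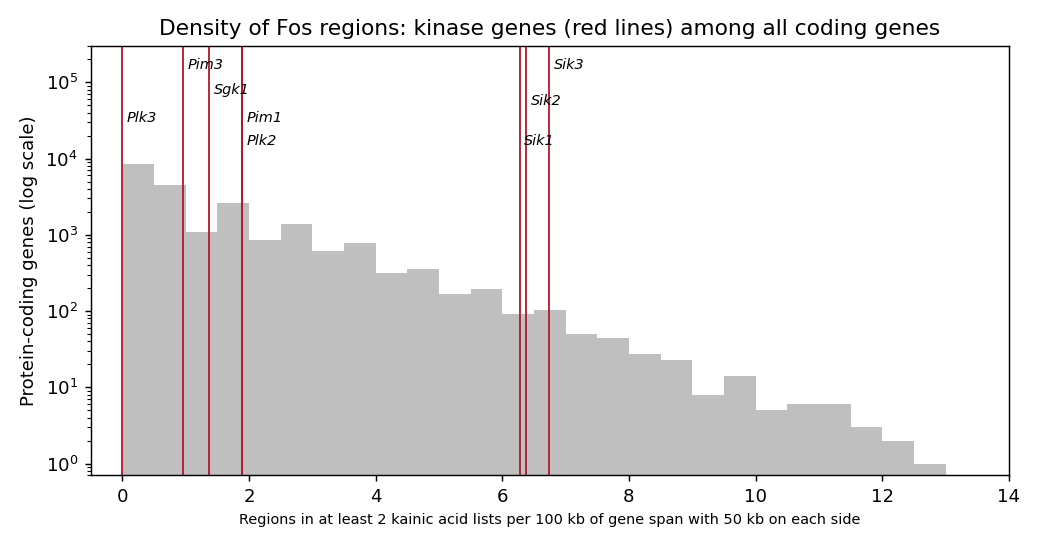
Histogram of kainic acid regions per 100 kb (x axis) over all protein-coding genes (y axis, log scale), with red lines at the 8 kinase genes. The 3 Sik genes stand between 6.27 and 6.74 regions per 100 kb, and the other 5 genes at 1.90 or below.

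Strength was compared as the percentile rank of the deposited fold within a list, where 0 is the highest fold, since folds are not scaled between libraries. Near the 8 genes the median of the mean rank over regions was 38.3, against 41.9 over all 26862 kainic acid regions. A mean rank under 5 was found for 5 of the 50 regions, or 10.0%, against 3.48% of all. These 5 regions lay near Sik1, with 2, and Sik3, with 3, so 2 of the 8 genes had such a region, against 6.07% of all protein-coding genes.

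Sik1 (chr17:31844248-31855804) had its strongest regions far from the gene body, on both sides. The region at chr17:31892572-31893619 lies 36.8 kb beyond the higher-coordinate end of Sik1, outside any protein-coding gene. Its folds were 11.0, 15.9 and 11.5 in kainic acid replicates 1, 2 and 3, with ranks of 1.10, 1.02 and 0.917. Its summits carried 45, 94 and 76 reads. All 3 lists thus placed it close to their top 1%, with a mean rank of 1.01 ± 0.0911 (SD over 3 lists). On the other side, chr17:31813886-31814858 lies 29.4 kb beyond the lower-coordinate end. It had folds of 7.81, 14.9 and 11.4 and ranks of 5.52, 1.28 and 0.938. Neither of these regions had a saline peak. The gene table lists no other protein-coding gene within 50 kb of Sik1.

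Regions at Sik1 itself were weaker and less often shared. The span held 3 kainic acid regions, all absent from the list of replicate 1. The best of them, chr17:31854462-31855752 at the higher-coordinate end, had folds of 7.57 and 4.97 in kainic acid replicates 2 and 3. These 2 peaks ranked at 12.5 and 25.8 in their lists. The region is a chain of neighbouring peaks, and its saline replicate 2 peak, chr17:31855236-31855659 with a fold of 4.76 and a rank of 22.5, does not overlap the replicate 3 peak. The saline peak overlaps both peaks of kainic acid replicate 2 in the region. These are chr17:31854462-31855327, with the rank of 12.5, and chr17:31855546-31855752, with a rank of 49.6. Another region, chr17:31856476-31857444, starts 0.672 kb beyond that end and was in all 3 lists with ranks of 97.0, 11.0 and 12.4, so replicate 1 placed it near the bottom. The promoter table has no entry for Sik1, so its strand was not used.

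At Sik3 (chr9:46012820-46224194, plus strand) the regions ran along the gene body. Of its 21 regions, 19 lay inside the span, and 9 had their best summit in the first 50 kb after the annotated start, 7 of them in all 3 lists. A further 10 inside regions lay beyond that distance. The gene table gives no exons, so exonic and intronic positions were not told apart.

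The strongest, chr9:46215359-46216205, lies 203 kb after the start and close to the far end of the gene. Folds there were 9.24, 13.3 and 9.51 in kainic acid replicates 1, 2 and 3, with ranks of 2.59, 1.98 and 2.28, so the libraries ranked it nearly alike. Next came chr9:46042198-46043221, 29.7 kb after the start, with folds of 9.31, 14.8 and 8.37 and ranks of 2.53, 1.35 and 3.89. A wide region at chr9:46081976-46084639, 70.7 kb after the start, had ranks of 9.95, 1.03 and 3.75. The region nearest the start, chr9:46011312-46012616, has its best summit 717 bp upstream and overlaps the neighbouring gene Pafah1b2. Its ranks of 64.4, 12.4 and 17.4 were spread widely. No saline list had a peak within 50 kb of Sik3.

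**Figure D3:**
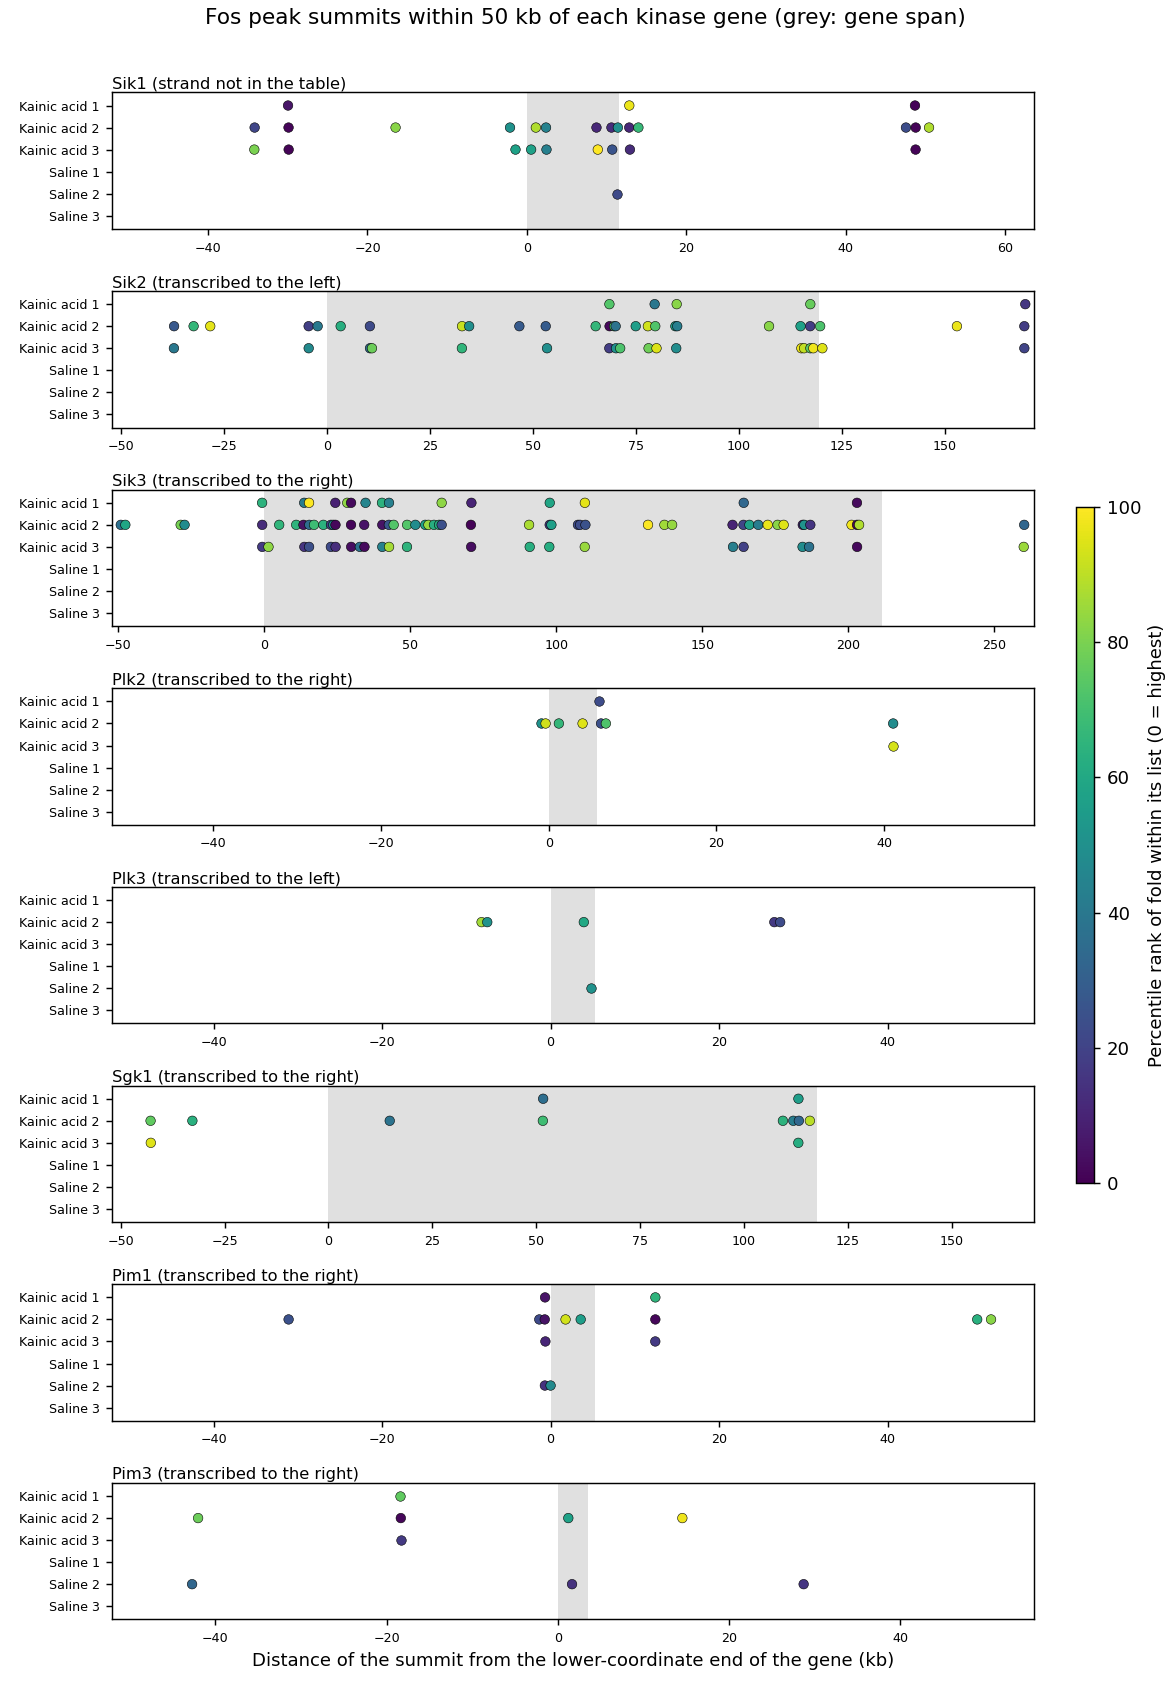
Summits of Fos peaks (points) in each of the 6 libraries (rows), by distance in kb from the lower-coordinate end of each kinase gene (x axis), coloured by percentile rank of fold within the list. Sik3 and Sik2 carry peaks along the span (grey), Sik1 has its strongest on both sides 29.4 and 36.8 kb away, and saline peaks appear in replicate 2 only.

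Sik2 (chr9:50889644-51009132, minus strand) held many regions of modest rank. Inside its span lay 10 of its 14 regions, and none of the 14 had a mean rank under 5. The best by mean rank among those in all 3 lists, chr9:51058680-51059757, had folds of 6.00, 6.69 and 5.36 and ranks of 15.7, 17.7 and 20.3 in kainic acid replicates 1, 2 and 3. It lies 49.5 kb from Sik2, overlaps the gene Layn and was the kainic acid region closest to the 50 kb limit from within. Just outside that limit, at 55.8 kb from Pim1, lay chr17:29434411-29435012, in 2 lists with a mean rank of 11.3. Within Sik2 itself the best of the regions in all 3 lists was chr9:50957899-50958565, with folds of 3.81, 13.5 and 5.57 and ranks of 72.8, 1.86 and 17.8. The 3 libraries disagreed on this site, which replicate 2 placed in its top 2%. A region in replicates 2 and 3 only, chr9:50899839-50900976, had ranks of 22.7 and 34.5 there and so a slightly lower mean rank, 28.6 against 30.8. Nearest the start, with its best summit 295 bp upstream, chr9:51009231-51010356 was called in replicates 2 and 3 at ranks of 71.7 and 95.1.

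Pim1 (chr17:29490785-29496111, plus strand) had 2 regions, both in all 3 lists. The promoter-proximal one, chr17:29488897-29490546, has its best summit 684 bp upstream of the annotated start. Its folds were 7.89, 10.2 and 6.48 in kainic acid replicates 1, 2 and 3, with ranks of 5.30, 5.08 and 10.7. Saline replicate 2 also had a peak there, with a fold of 5.03 and a rank of 14.2. The summits carried 45, 60 and 47 reads with kainic acid and 22 in saline replicate 2, numbers that are not scaled for depth. A region in at least 2 kainic acid lists and a saline list lay near 2 of the 8 genes, Sik1 and Pim1, against 6.61% of all protein-coding genes. The other Pim1 region, chr17:29502984-29503566, lies 6.87 kb past the end of the gene and had ranks of 65.0, 1.93 and 17.1, with no saline peak. Leaving out any 1 kainic acid library left 2 regions at Pim1.

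Pim3 (chr15:88862194-88865726, plus strand) had a single kainic acid region, which was distal. At chr15:88843474-88844062, 18.3 kb upstream of the annotated start and outside protein-coding genes, the folds were 3.72, 13.6 and 5.69 in the order of the replicate numbers. The ranks were 75.4, 1.82 and 17.0. At the gene itself, kainic acid replicate 2 alone had a peak, 1224 bp after the start at a rank of 57.8. Saline replicate 2 had one 1660 bp after the start at a rank of 14.2, and its 2 other peaks in this window overlapped the neighbours Creld2 and Ttll8. Saline and kainic acid thus shared no region at Pim3.

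**Figure D4:**
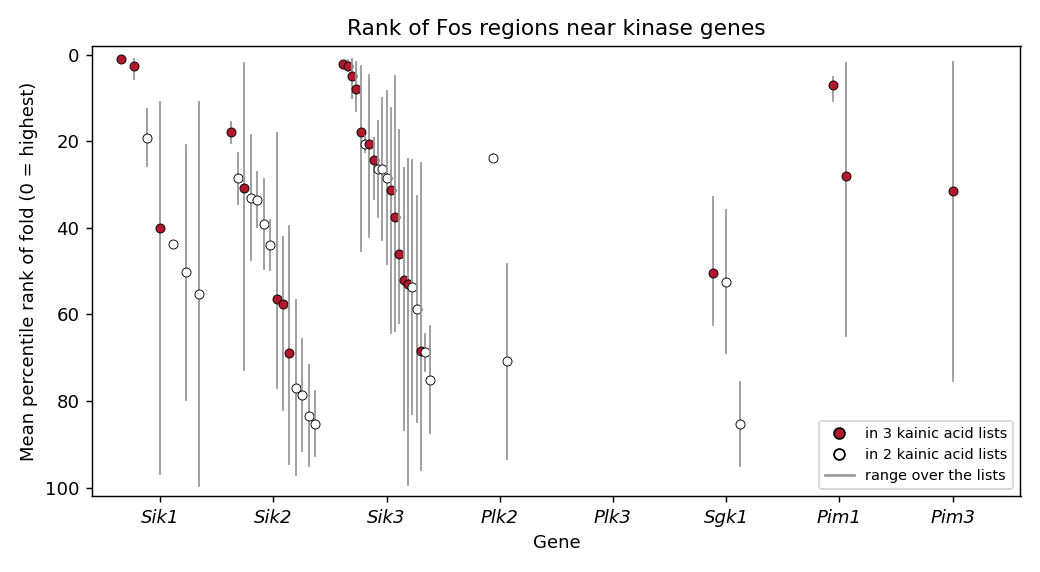
Mean percentile rank of fold (y axis, 0 at the top is the highest fold) of each kainic acid region near the 8 kinase genes (x axis), with a grey line for the range over the lists. Filled points are in all 3 lists and open points in 2, and the regions at Sik1 and Sik3 with ranks under 5 have short lines.

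Sgk1 (chr10:21882184-21999903, plus strand) had no region among the strongest of the lists. The best supported, chr10:21995058-21995910, has its best summit 757 bp after the nearest of 6 annotated starts. The folds were 4.23, 5.19 and 3.71, with ranks of 55.7, 32.9 and 62.5 in kainic acid replicates 1, 2 and 3, and summits of 33, 43 and 36 reads. No other Sgk1 region was in all 3 lists. The other 2 regions, 1 inside the span and 1 at 42.4 kb from it, had mean ranks of 52.4 and 85.3. Without kainic acid replicate 2 the count fell from 3 to 1.

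At Plk2 (chr13:110395044-110400844, plus strand), no region was in all 3 lists. The stronger, chr13:110400729-110401454, covers the end of the gene and was called in kainic acid replicates 1 and 2 with folds of 5.51 and 5.86 and ranks of 23.0 and 24.6. The weaker, chr13:110435922-110436430, lies 35.1 kb past the end and was in replicates 2 and 3 with ranks of 48.3 and 93.4. Replicate 2 alone had peaks around the start, with summits 361 and 849 bp upstream and ranks of 92.8 and 50.9. The nearer reaches 14 bases into the promoter window printed above and ends before its CRE. Without replicate 2 no region was left at Plk2, and without replicate 1 or 3 a single region was left in each case.

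Plk3 (chr4:117128655-117133963, minus strand) had kainic acid peaks in replicate 2 alone, 5 in all. Inside Plk3 the single kainic acid peak had a rank of 59.9, and saline replicate 2 had a peak 521 bp after the start at a rank of 50.6.

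Of the 7 saline replicate 2 peaks near these genes, 5 had a summit no more than 1 kb from where a protein-coding gene begins or ends, or 71.4%, against 58.9% of that whole list. In kainic acid replicates 1, 2 and 3 the shares near these genes were 10.3%, 13.1% and 12.7%, against 6.29%, 10.5% and 7.71% of the lists. These shares near the genes rest on few peaks, 3, 16 and 7, and their difference from the lists was not tested. A saline replicate 2 peak lay near 4 of the 8 genes, namely Sik1, Plk3, Pim1 and Pim3, against 30.2% of all protein-coding genes.

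Other genes of these pathways were counted from lists that the 8 genes are not part of. Among 6 relatives of the same families, 4 had a kainic acid region within 50 kb, against the 62.7% of all protein-coding genes given above. Plk1 and Pim2 had none, and Sgk3 had the most with 2. The relatives' median density was 0.822 regions per 100 kb, against 1.89 for the 8 genes and 0.871 for all.

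All 6 upstream kinase genes had a region, against 62.7% of all protein-coding genes, with a median of 2.96 per 100 kb. Regions in all 3 lists lay near 4 of the 6, against 42.5%. Pdpk1, at 0.55 per 100 kb, and Prkaca, at 0.81, were below the median of 0.871 for all genes. Stk11, which encodes the kinase LKB1 that activates the Sik family, had 11 regions, 5 of them in all 3 lists, and 6, 22 and 12 peaks in kainic acid replicates 1, 2 and 3. Stk11 had 9.57 regions per 100 kb, and saline replicate 2 had 7 peaks near it. Of 12 substrates and partners, all had a region, against the same 62.7%, with a median of 1.98 per 100 kb. Regions in all 3 lists lay near 8 of the 12, against 42.5%. Foxo3, at 0.513 per 100 kb, Hdac4, at 0.545, and Rap2a, at 0.777, were below the median of 0.871. The 62.7% is over genes of all lengths, and a longer gene has a longer window. Nedd4l had the most, 32, or 7.38 per 100 kb, of which 15 were in all 3 lists.

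Marker genes of cell types were counted the same way, as nearness of a peak and not as expression. A kainic acid region lay near 4 of 5 excitatory neuron, 3 of 4 astrocyte, 2 of 4 oligodendrocyte, 3 of 4 microglia and 3 of 4 endothelial markers, and near 2 of 4 liver genes, against 62.7% of all protein-coding genes. Of the liver genes, Apoa1 shares regions with Sik3, since their windows overlap.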

How the data were processed

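The data were 6 peak lists of 10 columns, 1 per Fos library, none pooled. No list of the input library was analysed here. Per the submitters' processing notes, the authors used Trim Galore 0.6.4, Bowtie2 2.3.4.3, MACS2 and deepTools 3.5.0 with the build mm10. Peak names in the files carry a mapping quality of 30. Neither the cutoff nor the control library is stated: both are not given in the sources used here. Fold, as deposited, is a ratio on a linear scale of summit to local background within a library. The deposited −log10 p and −log10 q, and the deposited score of 10 times −log10 q rounded down, also belong to 1 library. All 4 served to order, select or describe peaks inside their own list. The lowest deposited −log10 q was 1.38, 1.35 and 1.35 in kainic acid replicates 1, 2 and 3 and 1.35 in saline replicate 2, so a missing peak is one that was not called.

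Overlap of 1 bp or more merged peaks into a region, and regions within 50 kb of RefSeq spans (GRCm38.p6, all 8 genes matched) were counted with Python 3.11.15 and pandas 2.3.3. Ranks are of the fold, the best peak of a list standing for it in a region, averaged over the kainic acid lists with a peak. Summit reads k were solved from fold = (k + 1)/(λ + 1) and the Poisson p-value with scipy 1.17.1, an inferred model. Solving, merging and counting were tested on simulated data. Regions named in the text are, for each gene, that of lowest mean rank among those in the most lists, that nearest the start and any with a saline peak. Others, such as further strong regions of Sik1 and Sik3 and single-library peaks, were picked with their values in view. The genes and lists were chosen with earlier results of these data known. Alternatives varied the reach, −log10 q, support, merging, list length, ranking and libraries.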

Additional observations from a re-analysis of the deposited data

How the results depend on the processing

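The number of kainic acid regions near the 8 genes, 50, was 20 with −log10 q of at least 10, 25 when all 3 lists were required, 126 when any 1 list sufficed and 31 with equal numbers of peaks in the kainic acid lists. When each kainic acid library was left out in turn the count was 24 to 47 regions, the lowest without replicate 2, and 28 without replicate 3. Fewer lists allow fewer pairs, which by construction lowers these counts. The number of genes with a region stayed between 5 and 8 over all 11 alternatives run for it. At a reach of 100 kb Plk3 had 1 region, and at 10 kb Pim3 had none. For single genes, 42 of 88 counts moved by more than 1.5 times, 30 to fewer and 12 to more. The mean rank of the strongest region at Sik1 ran from 0.967 to 2.40, except at a reach of 10 kb. That reach leaves out its distal regions, and the strongest region left had 40.1. This rank ran from 1.71 to 5.14 at Sik3, from 4.88 to 15.9 at Pim1 and from 9.82 to 38.6 at Sik2. It ran from 9.39 to 46.2 at Pim3 and from 14.5 (reach of 100 kb) to 83.2 at Sgk1. At Plk2 it ran from 2.19 (reach of 100 kb) to 70.9 (without replicate 1, or with summits within 200 bp). The low ends at Sik3 and Pim1 are ranks by −log10 q and not by fold. The 2.40 at Sik1 and the high ends at Sik3, Pim1, Sik2 and Sgk1 come from lists cut to equal numbers of peaks and ranked anew. Percentiles in a cut list are on another scale than those in the full list. The background share of genes with a region ran from 36.1% to 78.0%.

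The difference in number of peaks was above 0 in all 13 alternatives. Apart from the share of each list, none of them scales for list length. The lists are far longer with kainic acid, so this common sign is not separate support. With 3 libraries a group, the exact permutation p stays at 0.1 or above. Leaving out one library gave 39.7 to 86.2 peaks. As a share of each list the difference was 0.119 percentage points (exact permutation p = 0.4), where saline replicates 1 and 3 enter at 0%. Saline replicate 2, at 0.214%, lay above the share of each kainic acid library. The labels do not say that a library number marks a shared day or animal. With the replicate block the difference was 66.3 (exact sign-flip permutation p = 0.25, the smallest value 3 pairs allow). Deviations of peak numbers from the group means correlated across genes at 0.354, 0.347 and 0.0137 for replicates 1, 2 and 3. Saline replicates 1 and 3 had almost no peaks, so these values rest largely on saline replicate 2 and cannot decide on pairing. Since the labels name no pairing, the main test did not treat the libraries as pairs. List length limits what the saline lists of 7 and 2 peaks can show.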

Other observations

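A pattern chosen after its values were seen concerns sites that 1 kainic acid library ranked far higher than another. The region inside Sik2 (ranks of 72.8, 1.86 and 17.8 in kainic acid replicates 1, 2 and 3), that past the end of Pim1 (65.0, 1.93 and 17.1) and that upstream of Pim3 (75.4, 1.82 and 17.0) had nearly the same ranks in each library. Near the 8 genes, 9 regions in all 3 lists ranked under 2 in replicate 2, and 3 of them ranked over 60 in replicate 1. Over the whole genome this was the case for 38 of 1246 such regions, or 3.05%. The limits of 2 and 60 enclose the 3 regions that drew attention to the pattern, so the count near the 8 genes is not independent of them. In the opposite direction, 0 of 300 regions that ranked under 2 in replicate 1 ranked over 60 in replicate 2. Of the 1246 regions, 5 ranked over 60 in replicate 3, or 0.401%. Of 593 regions that ranked under 2 in replicate 3, 4 ranked over 60 in replicate 1, or 0.675%. Replicate 2 had the longest list and replicate 1 the shortest, and the part of list length in these ranks was not tested.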
